A study of Mus musculus with 18 samples.

Results

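The 7 mouse genes App, Mapt, Apoe, Bace1, Park7, Lrrk2 and Sqstm1, whose human counterparts are tied to Alzheimer or Parkinson disease, were followed in 3 brain regions of mice with and without Nrf2. They were chosen by name, and every probe that the array's accession column ties to one of them was kept: 9 probes of 41174, with 1 probe for each of 6 genes and 3 probes for Mapt. The study measured RNA from 3 brain regions, the cortex, the brainstem and the hippocampus, in unstressed male mice of the strain 129SV on 18 Agilent 1-colour arrays. Wild-type mice and mice lacking Nrf2, which is encoded by Nfe2l2, gave 3 arrays for each region, so that there were 6 groups. All groups shared the strain and the sex. Age, the part of Nfe2l2 that was removed and the dissection borders are not given in the sources used here.

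Nrf2 is a transcription factor that Keap1 keeps low at rest, and that binds antioxidant response elements in the promoters of detoxification and antioxidant genes when oxidants or electrophiles disable Keap1. App encodes the amyloid precursor protein, Bace1 the beta-secretase that makes the first cut towards amyloid beta, Apoe the main lipid carrier secreted by astrocytes, and Mapt the microtubule-binding protein tau. Park7 encodes the redox-sensitive protein DJ-1, Lrrk2 a large kinase that phosphorylates Rab proteins, and Sqstm1 the autophagy adaptor p62, which binds Keap1 and is itself a known Nrf2 target gene.

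Promoter sequences were looked at because Sqstm1 is the member with a textbook link to Nrf2. The RefSeq promoter table (GRCm38) held 7 promoters of 5 members. The 250 bases before the start were searched on both strands for the core of the antioxidant response element, TGACNNNGC, where N is any base. The core was present in 10.2% of 32851 mouse promoters of this length. Among the members it was present once, in App, on the strand of the gene, and its first base lay 42 bases before the start. It was not found in these windows of Sqstm1, Lrrk2, Park7 or the 3 Apoe promoters. Sequence beyond these 250 bases was not searched, so whether Sqstm1 or another member holds the core elsewhere is not answered. The windows of Sqstm1 (chr11:50210821-50211070, minus strand), the known target, and of App (chr16:85173708-85173957, minus strand), the member with the match, are shown 5′ to 3′, with the core in capitals.
App: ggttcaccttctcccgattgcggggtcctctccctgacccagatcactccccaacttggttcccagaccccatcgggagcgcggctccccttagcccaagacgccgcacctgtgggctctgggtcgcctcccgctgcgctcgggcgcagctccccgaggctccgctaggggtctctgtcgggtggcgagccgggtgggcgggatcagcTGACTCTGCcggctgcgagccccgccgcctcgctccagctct
Sqstm1: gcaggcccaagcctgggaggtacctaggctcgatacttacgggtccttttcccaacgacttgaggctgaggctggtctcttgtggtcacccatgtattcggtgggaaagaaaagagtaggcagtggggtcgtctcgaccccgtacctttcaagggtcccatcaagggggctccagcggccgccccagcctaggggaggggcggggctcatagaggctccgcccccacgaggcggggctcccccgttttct
A match is a description of these letters and says nothing about binding.

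Levels are given as log2 of the processed intensity minus the 75th percentile of the array. A level of 0 is thus the 75th percentile of all probes, and levels of different probes are not compared with each other. All 9 probes were well above background on all 18 arrays, and none was saturated. Differences are log2 differences from limma with 95% confidence intervals in brackets. A difference was called at a Benjamini-Hochberg adjusted p under 0.05 over all 30063 tested probes.

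Of the spots, 65.3% to 75.1% per array were well above background. Nfe2l2 followed the genotype labels: its brighter probe lay between 0.79 and 1.39 on the 9 wild-type arrays and between -8.39 and -3.62 on the 9 knockout arrays. In knockout tissue that probe was well above background on 0 of 3 cortex, 3 of 3 hippocampus and 1 of 3 brainstem arrays. Region labels were checked with a short list of markers, added after the data were seen. The cortex markers Tbr1 and Cux2, but not Rorb, were higher on all 6 cortex arrays than on any other array. The same held for 2 of 4 markers in hippocampus (Dsp and Grik4, not Prox1 or Wfs1) and 2 of 2 in brainstem (Hoxb3 and Hoxb4). Arrays deviated from their group mean by 0.15 to 0.36 (root mean square over probes), most on knockout brainstem array 3. The first component of these deviations held 44.1% of their variance. It had 1 sign on all 6 arrays with the number 3 and the other sign on the other 12 arrays. The labels number the mice within a genotype, and the RNAs were independent. The labels do not say whether the regions of 1 number come from 1 mouse. A p-value of the main model sets a difference against the spread of these samples within groups. It takes every array as independent, so a mouse shared between regions, or an effect shared by number or slide, is left out of account.

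**Figure D1:**
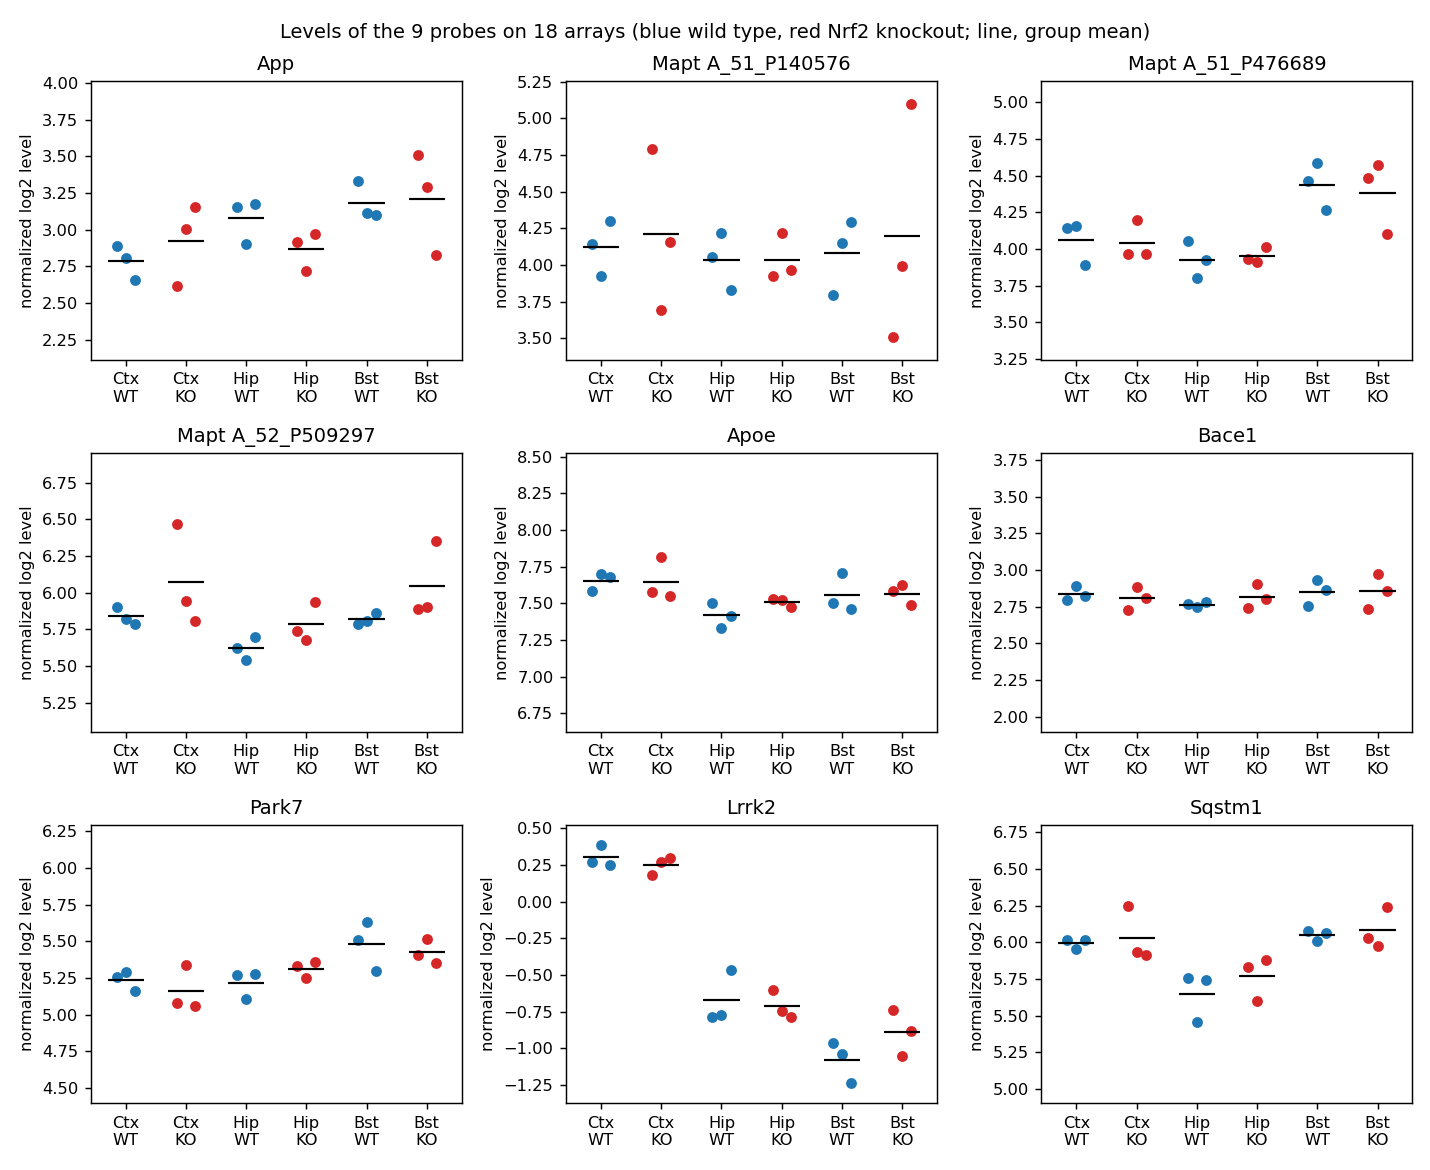
Normalized log2 level (vertical axis, each panel spanning the same range of log2 units) of each of the 9 probes in cortex (Ctx), hippocampus (Hip) and brainstem (Bst), wild type (WT, blue) and Nrf2 knockout (KO, red), with a point for each array (numbers 1 to 3 from left to right) and a line at the group mean. Lrrk2 falls from cortex (0.18 to 0.39) to hippocampus (-0.78 to -0.46) and brainstem (-1.24 to -0.74), whereas the Bace1 points lie at nearly 1 height.

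Loss of Nrf2 moved no member past the threshold. In cortex, hippocampus, brainstem and the mean of the 3 regions, 0 of 7 members were called, against 0.0333%, 0.0200%, 0.0299% and 0.0466% of all tested probes. The number of members at an unadjusted p under 0.05 was 0 in cortex, hippocampus and brainstem, where 2.0%, 1.26% and 2.82% of all probes had such a p, and 1 in the mean (Mapt), where 6.45% had one. The intervals state how large an effect these arrays leave possible. In the mean of the 3 regions, the narrowest interval was that of Bace1, from -0.10 to 0.12, and the widest of the 7 main probes that of App, from -0.22 to 0.20. Within 1 region, an interval of these main probes reached 0.18 (Bace1) to 0.36 (App) to either side of its difference. Over all 9 probes, interval ends within a region went down to -0.70 (hippocampus) and up to 0.82 (brainstem). A p above the threshold does not show that a level was the same in both genotypes.

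Sqstm1, the known Nrf2 target, had wild-type cortex levels of 6.01, 5.96 and 6.02 and knockout cortex levels of 6.25, 5.93 and 5.91. Hippocampus gave 5.76, 5.46 and 5.74 in wild type and 5.83, 5.60 and 5.88 in the knockout. In brainstem they were 6.08, 6.01 and 6.06 in wild type and 6.03, 5.98 and 6.24 in the knockout. The genotypes overlapped in every region. Knockout minus wild type was 0.04 [-0.22, 0.29] in cortex, 0.12 [-0.13, 0.37] in hippocampus and 0.03 [-0.22, 0.29] in brainstem. The mean over regions was 0.06 [-0.08, 0.21], or 4.50% with an interval from -5.59% to 15.7%, and its adjusted p was 0.861.

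App levels spread within groups, with group SDs from 0.12 to 0.35 (n = 3 each). Cortex levels were 2.89, 2.81 and 2.66 in wild type and 2.62, 3.0 and 3.15 in the knockout. Hippocampus levels were 3.15, 2.91 and 3.17 in wild type and 2.92, 2.72 and 2.97 in the knockout. Brainstem levels were 3.33, 3.11 and 3.1 in wild type and 3.51, 3.29 and 2.83 in the knockout. The genotypes overlapped in all 3 regions, and the difference was 0.14 [-0.22, 0.50] in cortex, -0.21 [-0.57, 0.15] in hippocampus and 0.03 [-0.34, 0.39] in brainstem. The mean was -0.01 [-0.22, 0.20]. The knockout difference in hippocampus minus that in cortex was -0.35 [-0.86, 0.16], the largest of these between-region comparisons in any member by its main probe, with an adjusted p of 1.

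App and Apoe were each printed 10 times on every array. These repeat spots share 1 labelled RNA and 1 hybridisation, so their spread measures the noise of spots within an array only. The SD over the App spots of an array had a median of 0.05, against a median of 0.14 for the SD over the 3 arrays of a group. The widest range over the App spots of 1 array was 0.26, whereas the median spot moved by 0.89 from the lowest to the highest array. For Apoe the corresponding SDs were 0.05 and 0.08, with 8 to 10 spots used per array. Repeat spots hold no labelling or sample variation, so array-level and sample differences cannot be told apart from them.

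**Figure D2:**
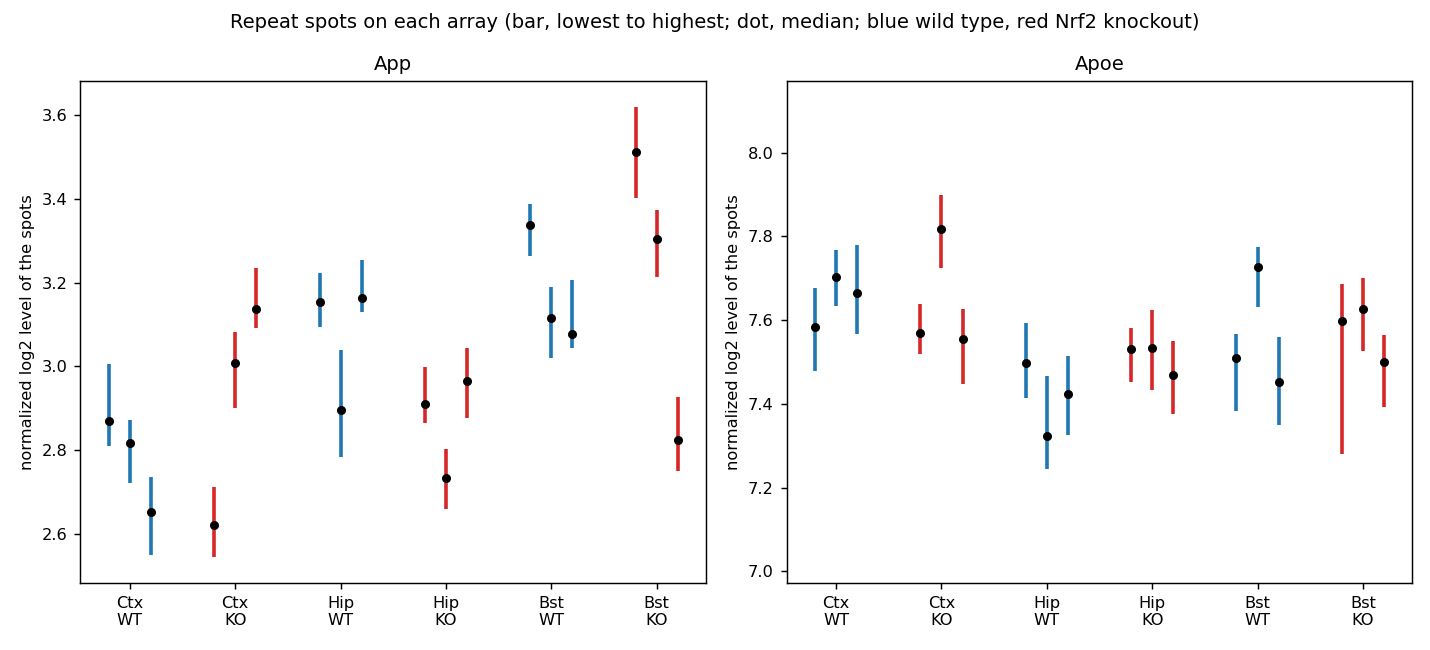
Normalized log2 level of the repeat spots of App and Apoe on each of the 18 arrays (bar from the lowest to the highest spot, black dot at the median), in cortex (Ctx), hippocampus (Hip) and brainstem (Bst), wild type in blue and Nrf2 knockout in red. For App the medians of 3 arrays of a group often lie apart by more than their bars are long, most in knockout brainstem and knockout cortex.

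Mapt was read by 3 probes, which were not tested against each other. For the brightest probe (A_52_P509297), cortex levels were 5.90, 5.82 and 5.79 in wild type and 6.47, 5.94 and 5.81 in the knockout. Hippocampus levels were 5.63, 5.54 and 5.70 in wild type and 5.74, 5.68 and 5.94 in the knockout, and brainstem levels were 5.79, 5.81 and 5.86 in wild type and 5.89, 5.90 and 6.36 in the knockout. The brainstem genotypes did not overlap for Mapt, 1 of the 7 members, and for 6.32% of all tested probes. In cortex and hippocampus the genotypes overlapped for all 7 members, whereas 5.68% and 8.01% of all probes did not overlap. The difference was 0.23 [-0.10, 0.57] in cortex, 0.17 [-0.17, 0.50] in hippocampus and 0.23 [-0.11, 0.56] in brainstem. Both cortex and brainstem held 1 knockout array far above the rest, 6.47 and 6.36. The mean of the 3 regions was 0.21 [0.02, 0.40], with an unadjusted p of 0.0354 and an adjusted p of 0.769.

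That mean was 0.14 without knockout cortex array 1, 0.16 without knockout brainstem array 3 and 0.09 without both (an alternative chosen after the values were seen). Each region's arrays lay on 2 slides, and on all 6 combinations of region and slide the knockout was higher, by 0.02 to 0.49. Both ends of this range compare 1 array with 1 array, the upper one with knockout brainstem array 3. For the other Mapt probes the mean over regions was 0.07 [-0.33, 0.48] for A_51_P140576 and -0.02 [-0.18, 0.15] for A_51_P476689. On the same 6 combinations their differences had both signs, from -0.22 to 0.80 and from -0.16 to 0.10. A_51_P140576 was also highest on knockout cortex array 1 (4.79) and knockout brainstem array 3 (5.10), and its group SD reached 0.81. On these same arrays Sqstm1 was highest among all 18 (6.25 and 6.24), and the mean of 12 neuronal markers was the lowest of its group (3.45 and 3.57). Over the deviations of the 18 arrays from their group means, the brightest Mapt probe and Sqstm1 correlated at r = 0.83. That is a description over arrays that share slides, and on each array both probes read the same RNA. The part of cell composition or RNA quality in these values was not tested.

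For the remaining members the genotypes differed by at most 0.19 in a region. Apoe lay between 7.33 and 7.82 on all arrays, and its mean difference was 0.03 [-0.09, 0.15]. Bace1 lay between 2.73 and 2.97, the narrowest range of the 9 probes, and its mean difference was 0.01 [-0.10, 0.12], or 0.690% with an interval from -6.48% to 8.41%. Park7 lay between 5.06 and 5.63, and its mean difference was -0.01 [-0.14, 0.12]. For Lrrk2 the difference was -0.05 [-0.29, 0.19] in cortex, -0.04 [-0.28, 0.20] in hippocampus and 0.19 [-0.05, 0.43] in brainstem, where the levels were -0.96, -1.04 and -1.24 in wild type and -0.74, -1.05 and -0.88 in the knockout. The brainstem groups of Lrrk2 overlapped by 1 knockout array.

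**Figure D3:**
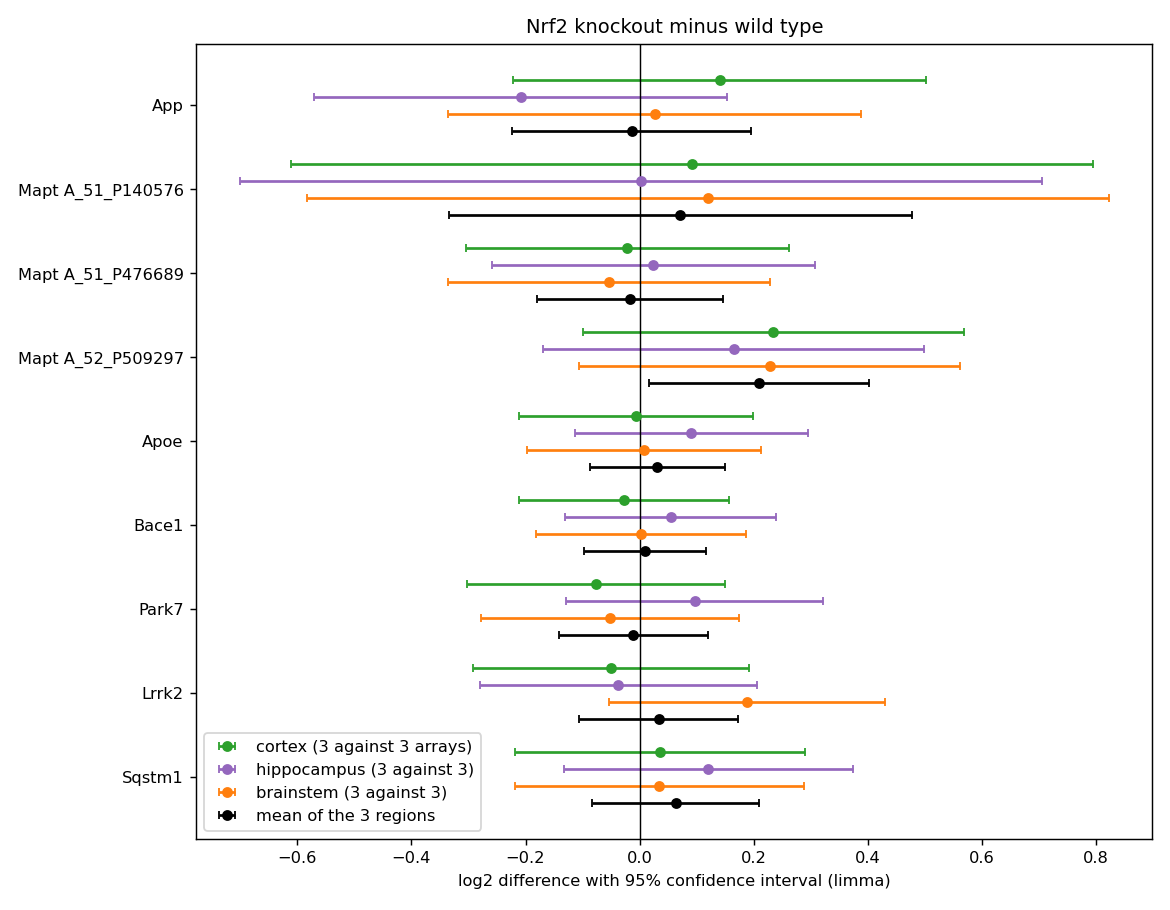
Knockout minus wild type (horizontal axis, log2 difference with limma 95% confidence interval) for the 9 probes in cortex, hippocampus and brainstem (3 against 3 arrays each) and for the mean of the 3 regions. All intervals include 0 except that of the mean for Mapt A_52_P509297, which runs from 0.02 to 0.40.

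The effect of the knockout was also compared between regions, in 3 tests per probe. None of the 7 members was called in any of the 3 comparisons, and neither was any probe of the array (0% of 30063). By limma, an unadjusted p under 0.05 was reached by 237, 255 and 275 probes (0.788%, 0.848% and 0.915%) for hippocampus against cortex, brainstem against cortex and brainstem against hippocampus, and by 0 members. Within single slides, the sign of a member's difference was the same on both slides of a region for 3 of 7 members in cortex, 5 of 7 in hippocampus and 2 of 7 in brainstem. With slide as a term in the model, or with the replicate number as a block, the number of members called for the knockout stayed at 0.

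Between regions, Lrrk2 was the member with the largest difference. Wild-type levels were 0.27, 0.39 and 0.25 in cortex, -0.78, -0.77 and -0.46 in hippocampus and -0.96, -1.04 and -1.24 in brainstem. Knockout levels were 0.18, 0.27 and 0.30 in cortex, -0.60, -0.74 and -0.78 in hippocampus and -0.74, -1.05 and -0.88 in brainstem. Cortex lay above both other regions without overlap in each genotype, hippocampus above brainstem without overlap in wild type only.

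In wild type, Lrrk2 was 1.97-fold lower in hippocampus than in cortex, -0.98 [-1.22, -0.73] with an adjusted p of 4.17e-05. It was 2.60-fold lower in brainstem than in cortex, -1.38 [-1.62, -1.14] with an adjusted p of 2.91e-07. Brainstem was below hippocampus by -0.41 [-0.65, -0.16], adjusted p 0.0101, and without wild-type hippocampus array 3 this became -0.30 with an adjusted p of 0.0575. In the knockout the same differences were -0.96 [-1.20, -0.72] (adjusted p 4.41e-05), -1.14 [-1.38, -0.90] (adjusted p 1.98e-06) and -0.18 [-0.42, 0.06] (adjusted p 0.225). The tests of the difference between genotypes were the between-region comparisons of the knockout effect described before, which called no probe.

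Counted by main probe, 1 of 7 members was called between hippocampus and cortex in wild type (16.4% of all probes) and 1 of 7 in the knockout (15.3%), Lrrk2 each time. Between brainstem and cortex it was again Lrrk2 in both genotypes, where 35.7% and 35.3% of all probes were called. Between brainstem and hippocampus, Lrrk2 and Sqstm1 were called in wild type (40.5% of all probes) and Sqstm1 in the knockout (39.5%). In these comparisons within a genotype the members were thus not called more often than probes in general. With 7 members such a share is coarse. The comparisons averaged over genotypes are given below with their own shares. The Mapt probe A_51_P476689, which is not counted here, is described with the other Mapt probes. The median size of the regional difference over the 7 members in wild type was 0.24, 0.09 and 0.20 for hippocampus against cortex, brainstem against cortex and brainstem against hippocampus, and over all probes it was 0.23, 0.34 and 0.38.

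Striatal markers moved beside Lrrk2 in hippocampus and brainstem against cortex. Of 9 striatal genes (among them Drd1, Drd2 and Adora2a), 8 were lower in hippocampus and 7 in brainstem than in cortex over both genotypes, and 1 was higher in brainstem. Their mean level ran from 0.87 to 1.07 on wild-type and 0.44 to 0.67 on knockout cortex arrays, and from -1.45 to -0.97 on hippocampus arrays of both genotypes. Their summed intensity, as log2, ran from 5.76 to 6.39 in cortex and from 3.24 to 3.98 in hippocampus, with all 9 genes well above background on every array. In brainstem it ran from 4.90 to 5.17 in wild type and 4.93 to 6.41 in the knockout. Between brainstem and hippocampus, 4 of the 9 genes were called higher and 1 lower, beside 29.3% and 26.5% of all probes. Knockout brainstem array 3 held a striatal mean of 0.55 and a sum of 6.41, within or above the cortex range, and the middle Lrrk2 level of its group (-0.88). Their part in the Lrrk2 difference was not tested. In such bulk samples, fewer cells of a type and less RNA per cell cannot be told apart.

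Sqstm1 was lowest in hippocampus. Averaged over the genotypes, a set of 3 comparisons of 6 against 6 arrays added after the data were seen, hippocampus lay below cortex by -0.30 [-0.48, -0.12] (adjusted p 0.0131, and -0.16 with an adjusted p of 0.0750 by quantile normalization) and brainstem above hippocampus by 0.36 [0.18, 0.54] (adjusted p 0.00225). All 6 hippocampus arrays (5.46 to 5.88) lay below all cortex (5.91 to 6.25) and brainstem arrays (5.98 to 6.24), and cortex and brainstem overlapped. Within wild type, brainstem minus hippocampus was 0.40 [0.15, 0.65] with an adjusted p of 0.0145, which became 0.0787 without wild-type hippocampus array 2. Within the knockout it was 0.31 [0.06, 0.57] with an adjusted p of 0.0485, and this call was lost in 13 of the 18 refits that left out 1 array. Wild-type hippocampus minus cortex was -0.35 [-0.60, -0.09], not called (adjusted p 0.0625), and called with the replicate number as a block (adjusted p 0.0209).

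In these averaged comparisons, 3 of 7 members were called by their main probe between hippocampus and cortex (31.1% of all probes), 3 between brainstem and cortex (50.2%) and 3 between brainstem and hippocampus (55.8%). In hippocampus against cortex, 3 of 7 members lay without overlap, beside 19.2% of all probes. These were the 3 called members, on the same arrays, so the overlap adds no separate support to the calls. Lrrk2 was called each time, at -0.97 [-1.14, -0.80], -1.26 [-1.43, -1.09] and -0.29 [-0.46, -0.12]. Cortex lay on slides of its own, so cortex and slide cannot be told apart. With slide as a random block, Lrrk2 was the only member whose main probe was still called against cortex, and the adjusted p of Sqstm1 in hippocampus against cortex became 0.0742. Slide 2 held 1 array of each genotype from hippocampus and from brainstem. On it, brainstem minus hippocampus was -0.45 in wild type and -0.28 in the knockout for Lrrk2, and 0.31 and 0.41 for Sqstm1. In the same order it was -0.05 and -0.09 for App, against the sign of its averaged difference, and 0.03 and 0.02 for Park7. For the other main probes it was -0.04 and -0.04 (Apoe), 0.10 and 0.12 (Bace1) and 0.24 and 0.61 (Mapt).

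The mean levels of App and Park7 were highest in brainstem. For App, brainstem exceeded cortex by 0.34 [0.09, 0.60] in the averaged comparison (adjusted p 0.0277), by 0.40 [0.04, 0.76] in wild type and by 0.28 [-0.08, 0.65] in the knockout, and neither genotype alone was called (adjusted p 0.0819 and 0.220). Slide as a random block brought the averaged value to 0.29 with an adjusted p of 0.167, and leaving out any of 5 single arrays also ended the call, at 0.26 to 0.32 (wild-type cortex 3, knockout cortex 1, wild-type brainstem 1, knockout brainstem 1 or 2). Brainstem minus hippocampus was not called for App: it was 0.11 [-0.26, 0.47] in wild type (adjusted p 0.652) and 0.22 [-0.03, 0.48] averaged over genotypes (adjusted p 0.127). In the knockout it was 0.34 (adjusted p 0.127), and 0.53 (adjusted p 0.0142) without knockout brainstem array 3. For Park7, levels in wild type were 5.26, 5.29 and 5.16 in cortex, 5.27, 5.11 and 5.28 in hippocampus and 5.51, 5.63 and 5.30 in brainstem. In the knockout they were 5.08, 5.34 and 5.06 in cortex, 5.33, 5.25 and 5.36 in hippocampus and 5.41, 5.52 and 5.35 in brainstem. Wild-type brainstem lay above both other regions without overlap. Knockout brainstem lay above cortex without overlap and overlapped hippocampus.

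Averaged over genotypes, Park7 was higher in brainstem than in cortex by 0.26 [0.10, 0.42] (adjusted p 0.0103) and than in hippocampus by 0.19 [0.03, 0.35] (adjusted p 0.0440). With slide as a random block these were 0.24 (adjusted p 0.0594) and 0.14 (adjusted p 0.197). The second call was also lost in 11 of the 18 refits that left out 1 array and with quantile normalization (0.12, adjusted p 0.235). Within a genotype Park7 was not called, and with the replicate number as a block the adjusted p was 0.0438 for wild-type brainstem against hippocampus and 0.0450 for knockout brainstem against cortex.

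Of the 3 Mapt probes, A_51_P476689 was highest in brainstem. Its wild-type levels were 4.14, 4.16 and 3.89 in cortex, 4.05, 3.80 and 3.92 in hippocampus and 4.46, 4.59 and 4.26 in brainstem. In wild type, brainstem exceeded hippocampus by 0.51 [0.23, 0.79] (adjusted p 0.00634) and cortex by 0.37 [0.09, 0.66] (adjusted p 0.0391), a call that was lost in 6 of the 18 refits that left out 1 array and with slide as a random block (adjusted p 0.0768). Averaged over genotypes, the values were 0.47 [0.27, 0.67] (adjusted p 5.85e-04) and 0.36 [0.16, 0.56] (adjusted p 0.00505), and both kept their call in all 28 alternatives run. For the brightest Mapt probe the averaged brainstem minus cortex difference was -0.02 [-0.26, 0.21], and it was lowest in hippocampus, by -0.25 [-0.49, -0.02] against cortex (adjusted p 0.0985). For A_51_P140576 no regional difference was larger than 0.18 in size, with wide intervals (averaged over genotypes, from -0.63 to 0.60 over the 3 comparisons). All 3 probes carry the same accession, and which transcripts each detects was not analysed here.

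Apoe and Bace1 varied least with region. Apoe was lower in hippocampus (7.33 to 7.53) than in cortex (7.55 to 7.82), without overlap, by -0.19 [-0.33, -0.04] in the averaged comparison. Its adjusted p of 0.0483 lay next to the threshold, and the call was lost in 14 of the 18 refits that left out 1 array, with quantile normalization (-0.06, adjusted p 0.542) and with slide as a random block (-0.16, adjusted p 0.235). Brainstem (7.46 to 7.71) overlapped both. For Bace1 no averaged difference between regions was larger than 0.06, and the widest of the 3 intervals of its averaged differences ran to 0.19 on the higher side.

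**Figure D4:**
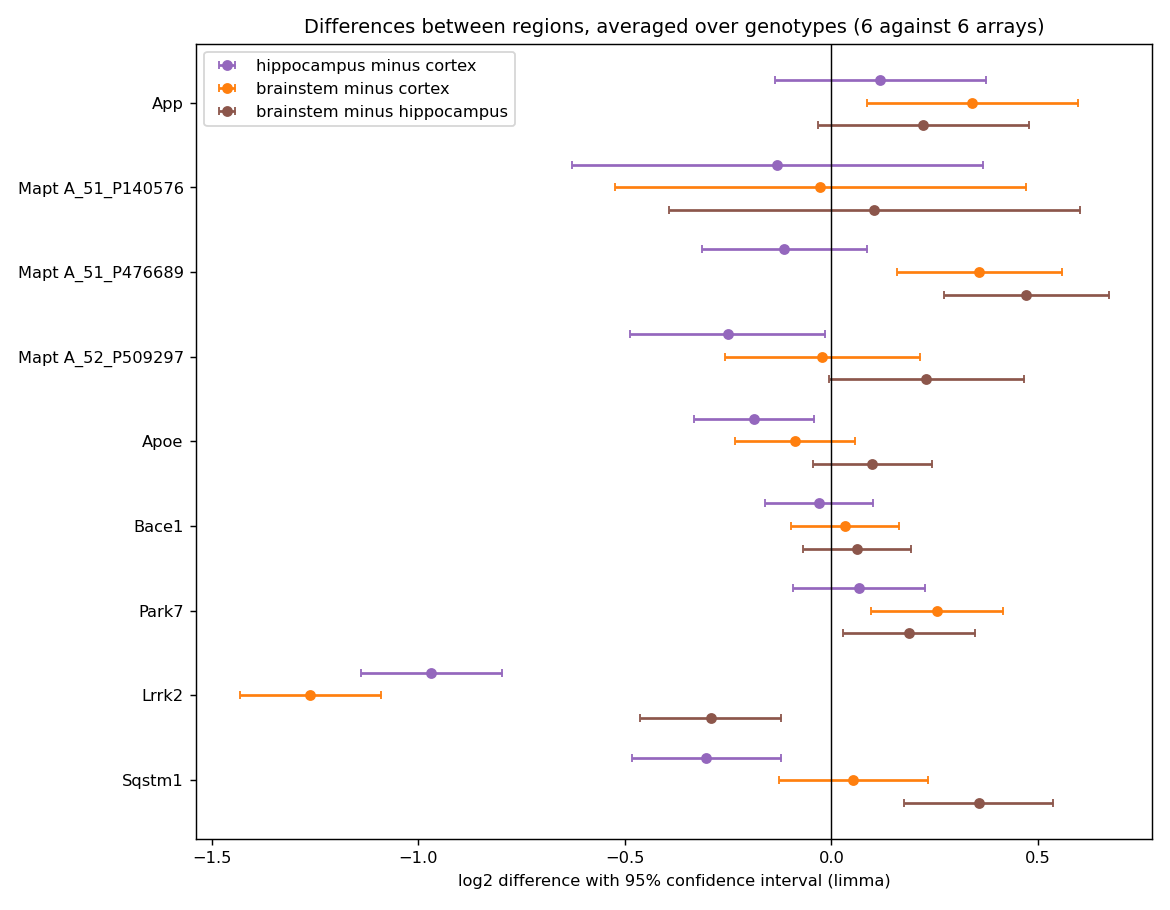
Differences between regions for the 9 probes, averaged over both genotypes (horizontal axis, log2 difference with limma 95% confidence interval, 6 against 6 arrays). Lrrk2 stands at -1.26 for brainstem minus cortex and -0.97 for hippocampus minus cortex, and all other differences lie between -0.30 and 0.47.

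Markers of other cell types moved with brainstem, where App, Park7 and Mapt A_51_P476689 were highest. All 13 measured myelin and oligodendrocyte genes were higher in brainstem than in cortex, with a median of 1.51, and than in hippocampus, with a median of 1.49. Their summed intensity, as log2, ran from 7.44 to 7.68 on cortex arrays, from 7.19 to 8.04 on hippocampus arrays and from 8.44 to 8.89 on brainstem arrays. Of 12 astrocyte genes, 7 were higher and 2 lower in brainstem than in cortex, and of 11 microglial genes 0 were higher and 9 lower. Of 12 neuronal genes, 5 were higher and 4 lower in brainstem than in cortex. Over all probes, 28.2% were called higher and 22.0% lower in brainstem than in cortex, and 29.3% were called higher than in hippocampus. In hippocampus against cortex, where Sqstm1 and Apoe were lower, 5 neuronal genes were lower and 1 higher. In that comparison 3 of the 12 astrocyte genes were higher and 3 lower, and 0 of the 13 myelin genes were called. Of 92 marker genes over 10 lists, 0 were called in any knockout comparison by limma. In the mean of the 3 regions, 11 of the 92 had an unadjusted p under 0.05, beside 6.45% of all probes. The part of these markers in the members' differences was not tested.

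**Figure D5:**
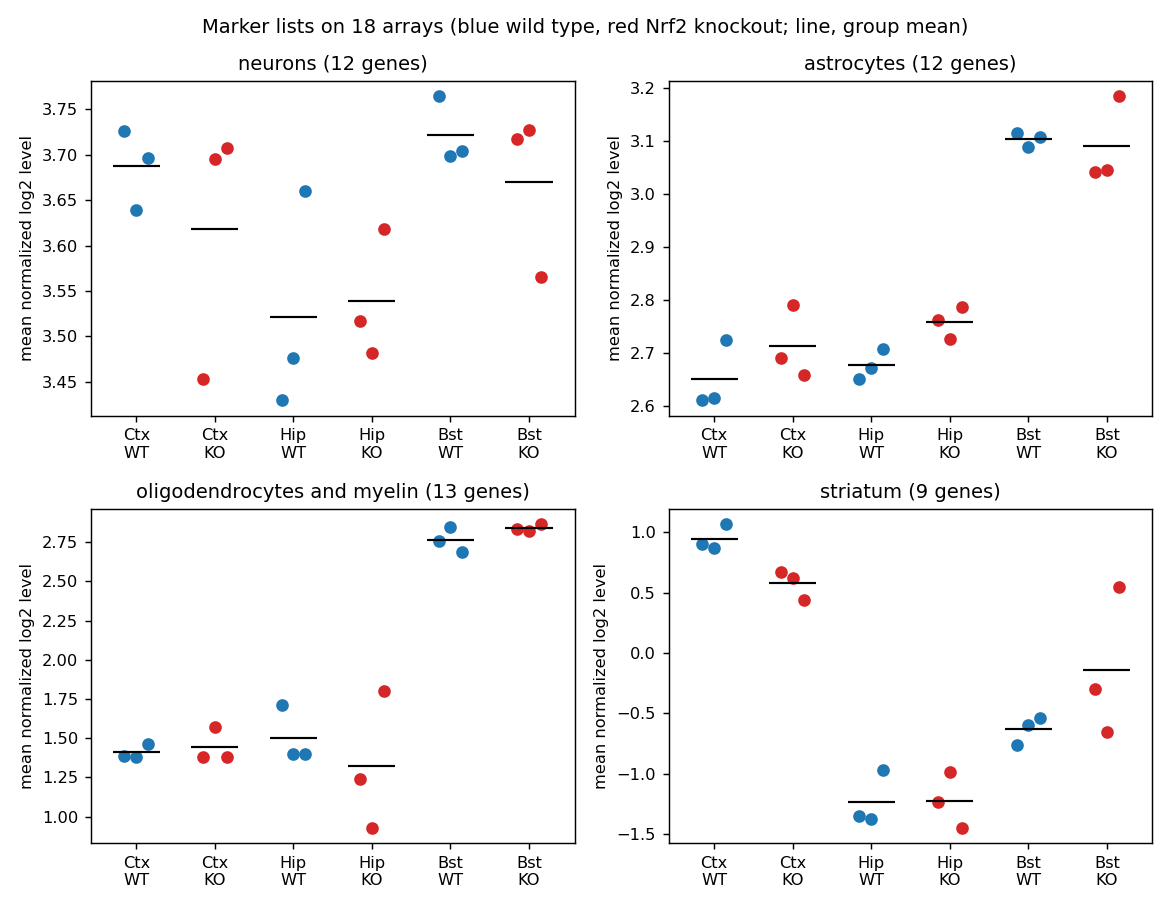
Mean normalized log2 level of 4 lists of marker genes on each of the 18 arrays (vertical axis, with a different range in each panel), in cortex (Ctx), hippocampus (Hip) and brainstem (Bst), wild type (WT, blue) and Nrf2 knockout (KO, red), with a line at the group mean. The myelin list is highest in brainstem, the striatal list has its highest group means in cortex, with knockout brainstem array 3 at 0.55, and the neuronal list is lowest within its group on knockout cortex array 1 (3.45) and knockout brainstem array 3 (3.57).

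Beyond the members, 7 lists of related genes held 129 genes, of which 119 were tested, 112 of them no members. None of the 112 was called for the knockout in any region or in the mean by limma. The numbers at an unadjusted p under 0.05 were 2, 1 and 3 in cortex, hippocampus and brainstem and 5 in the mean. Averaged over genotypes, 39 of the 112 differed between hippocampus and cortex (14 higher, 25 lower), 60 between brainstem and cortex (33 higher, 27 lower) and 68 between brainstem and hippocampus (45 higher, 23 lower). These were 34.8%, 53.6% and 60.7%, beside 31.1%, 50.2% and 55.8% of all probes. The counts by list that follow include the members and are for these averaged comparisons. Every list gene named there with a value was called, except where an interval is given.

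Around App and Bace1, of 17 tested genes of the App family, its adaptors and the secretases, 4 were higher and 1 lower in brainstem than in cortex. The median was 0.06, against 0.04 over all probes. The protease Adam17, which can make the alpha cut, was higher by 0.39, the gamma-secretase subunit Psenen by 0.33, and the App-binding adaptor Apbb1 lower by -0.53. Bace2, the relative of Bace1, was lower in hippocampus than in cortex by -0.99, although the Bace1 probe moved by -0.03 [-0.16, 0.10]. Of 7 enzymes that degrade amyloid beta, 4 were higher and 0 lower in brainstem than in cortex, with a median of 0.37. Among them were neprilysin, Mme (0.83), the insulin-degrading enzyme, Ide (0.44), and the endothelin-converting enzyme Ece2 (1.37). In hippocampus Mme was lower than in cortex by -0.79.

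Around Apoe, of 14 genes of lipid carriers, their receptors and their regulators, 0 were higher and 4 lower in hippocampus than in cortex, with a median of -0.07 against 0.03 over all probes. These were Apoe itself, the lipid transporter Abca7 (-0.50), the receptor Lrp1 (-0.27) and the nuclear receptor Nr1h2 (-0.45). In brainstem against cortex 6 were higher and 2 lower, with Apoc1 (1.72) and Apod (1.62) ahead. Of 13 genes from microglial and endocytic Alzheimer risk loci, 4 were higher and 6 lower in brainstem than in cortex. The kinase Ptk2b differed by -3.06 and the microglial receptor Trem2 by -0.66.

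Around Mapt, of 22 genes of microtubule proteins, tau kinases and phosphatases, 6 were higher and 10 lower in brainstem than in cortex, with a median of -0.10. The activators of the tau kinase Cdk5 were among the lower genes, Cdk5r1 by -1.11 and Cdk5r2 by -0.94, and the microtubule-associated Map1a was higher by 0.91. Against hippocampus 6 were higher and 6 lower.

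Of 29 Parkinson disease genes, Park7 and Lrrk2 included, 7 were higher and 8 lower in brainstem than in cortex, with a median of 0.02. Gamma-synuclein, Sncg, was higher by 4.12 and Gch1, which encodes the first enzyme of tetrahydrobiopterin synthesis, by 1.90. Around Sqstm1, of 17 genes of autophagy adaptors, the LC3 family and autophagy regulators, 0 were higher and 5 lower in hippocampus than in cortex, with a median of -0.06. Among them were Sqstm1 and the LC3 gene Map1lc3a, at -0.62. In brainstem against hippocampus 9 were higher and 2 lower, with a median of 0.25 against 0.01 over all probes. The adaptor Optn was higher by 1.13 and the transcription factor Tfeb by 0.91.

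For each member, the genes with the most similar level over the 18 arrays were found among 14821 genes, by the correlation with its main probe. Those of Lrrk2 were Ngef (r = 0.99), Gp1bb (r = 0.98) and Rgs20 (r = 0.98), and those of Mapt were Adam9 (r = 0.97), Ank3 (r = 0.96) and Ino80e (r = 0.96). Next came App with Cul1 (r = 0.94), Sqstm1 with Zfp606 (r = 0.94), Park7 with Macrod1 (r = 0.92) and Apoe with Cmss1 (r = 0.87). Bace1, whose level varied least, had the weakest nearest neighbour, Angptl4 (r = 0.80). These correlations include the regional differences and share arrays, and they are descriptions without a test. Among all pairs of members, the correlation of deviations from the group means was lowest for App with Mapt (r = -0.64). It was highest for Mapt with Sqstm1 (r = 0.83), followed by Apoe with Park7 (r = 0.81). These pairs are named as the extremes, and they too are descriptions without a test.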

How the data were processed

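RNA of 3 brain regions from Nrf2 wild-type and knockout mice was hybridised to 18 Agilent 1-colour arrays. The deposited scanner files hold the processed intensity of each spot, background-corrected by Agilent Feature Extraction 10.7.3.1 per the file headers, which name the build mm9. Spots with an outlier flag and control spots were left out, repeat spots were averaged, and log2 intensity was centred on the 75th percentile of each array. Of 41174 probes, 30063 were tested, each of which exceeded background clearly on every array of 1 or more groups.

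One limma model (limma 3.58.1, R 4.3.3) held a mean for each of the 6 groups over the 18 arrays, with 12 residual degrees of freedom, two-sided tests, Benjamini-Hochberg adjustment over all tested probes and 95% confidence intervals. The script was tested on simulated data. For a gene with several probes, the probe with the highest mean was the main one. The members and the gene lists were chosen with earlier results of these data known. From each list, up to 4 called genes with the largest difference were named in a comparison, and the counts used 1 probe per gene. Likeness was Pearson's r over the 18 arrays. Symbols came from RefSeq, looked up by the transcript identifier that the array files hold for each probe. This lookup gave 1 symbol for 26690 probes and none for 14484.

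Arrays with the same replicate number often deviated alike. The deviations of same-numbered wild-type and knockout arrays of a region correlated at r = 0.24 to 0.63 in 9 of 9 pairs. Across regions, r ran from -0.10 to 0.71 within a genotype (18 pairs) and from 0.003 to 0.64 where genotype differed too (18 pairs). These correlations are thus not particular to pairs across genotypes. The numbers follow the 5 slides in part. Alternatives were normexp (offset 50, on the median foreground and background intensity, the columns at hand), quantile normalization, other filters on dim probes, 1 probe per gene, the replicate number, mouse or slide as a block, other moderation, only the groups compared, and each array left out. The deposited value table was not used, because 7 of its 18 columns held the values of another array than the one they name. Some list and marker genes are not reported here by name.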

Additional observations from a re-analysis of the deposited data

How the results depend on the processing

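No member was called for the knockout in any region, in the mean or between regions under any alternative run, and the smallest adjusted p by limma over 1813 such values was 0.44. Of these values 148 changed sign, all from differences of at most 0.12 in size. The replicate block (the replicate number as a fixed term) left the members called for the knockout at 0, and the adjusted p of the Mapt mean became 0.44. Wild-type hippocampus against cortex rose from 1 called member to 2 with normexp, the replicate block, the mouse number as a block, trend and robust moderation or both knockout arrays left out. Wild-type brainstem against cortex rose to 2 with only the groups compared or both arrays left out, and knockout brainstem against cortex to 2 with quantile normalization, the replicate block, the mouse block or trend and robust moderation. Knockout brainstem against hippocampus fell from 1 to 0 without the filter, with slide as a random block or with only the groups compared. Averaged over genotypes, hippocampus against cortex fell from 3 to 1 with quantile normalization or slide as a random block, brainstem against cortex from 3 to 1 with slide as a random block, and brainstem against hippocampus rose from 3 to 5 with both arrays left out. Leaving out 1 array gave 1 to 2, 1 to 2 and 1 to 3 members in wild type (hippocampus against cortex, brainstem against cortex, brainstem against hippocampus), and 1 to 2 for brainstem against cortex and 0 to 1 for brainstem against hippocampus in the knockout. Beyond what fewer samples or probes account for by construction, the cause was not tested.

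Over all probes, calls for the knockout fell in cortex from 10 to 6 (the stricter filter, and only the groups compared), in hippocampus from 6 to 1 (only the groups compared), in brainstem from 9 to 5 (stricter filter) and 3 (only the groups compared), with 7 to 16 when 1 array was left out, and in the mean from 14 to 9 (stricter filter). Between regions they went from 0 to 1 with quantile normalization for hippocampus and brainstem against cortex and with only the groups compared for brainstem against cortex, and were 0 to 1 in all 3 when 1 array was left out. Wild-type hippocampus against cortex had 4916 calls, and 3026 to 5699 without 1 array. The knockout had 4612, 3027 to 5355 without 1 array and 2532 with only the groups compared, where brainstem against cortex went from 10604 to 5838. The averaged hippocampus against cortex went from 9342 to 5804 with slide as a random block. The number of arrays, 3 a group, limits the precision to the intervals given. The lowest Lrrk2 intensity was 381, well above background.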
